A study of Mus musculus with 4 samples.

Results

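The genes described here encode the bone morphogenetic proteins (BMP), the growth and differentiation factors (GDF), transforming growth factor beta (TGF-beta), the activin and inhibin chains, and their receptors. They were taken by symbol from an expression array: Bmp or Gdf followed by a number, Tgfb1 to Tgfb3, and every symbol that starts with Bmpr, Tgfbr, Acvr, Inha or Inhb. This gave 35 genes of the 909 named on the array, each read from the probe set that was brightest on average. They were 10 BMP ligands, 9 GDF ligands, 3 TGF-beta ligands, 2 activin or inhibin chains, 5 type I receptors, 4 type II receptors, 1 co-receptor and the metalloprotease Bmp1. Inha, Inhba, Inhbb, Acvr1b and Acvr1c were not among the named probe sets.

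All 4 arrays held RNA of wild-type mouse vascular smooth muscle cells (VSMC), which form the contractile layer of arteries, in osteogenic medium, which turns them towards bone-like cells. In the streptozotocin group (2 arrays) the medium also held 0.4 mM of the compound, a glucosamine-containing nitrosourea whose name the labels spell stroptozotocin, and the control group (2 arrays) had the osteogenic medium without it. The titles name the cells WT2 (replicate 1) or WTA (replicate 2), with 1 array of either in each group, and WT2 and WTA are called cultures below. All 4 titles also carry the mark "3w", which the labels do not explain and which is the same in both groups. The labels do not otherwise give an age of the mice or a time in culture, nor whether the cultures came from separate animals, and cells outside osteogenic medium were not analysed here.

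Ligands of this superfamily are secreted dimers. They bind type II receptors, which phosphorylate type I receptors, and these in turn phosphorylate Smad proteins that enter the nucleus. BMP ligands mostly use Smads that drive bone and cartilage genes, while TGF-beta and activins use others that favour matrix production, and both branches are known to act in VSMC and in vascular calcification.

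The values are log2 intensities after RMA, the robust multi-array average, in which each step of 1 is a doubling. The array medians lay between 5.83 and 5.87 and the lower quartiles between 4.39 and 4.40. Of the 35 genes, 17 lay above the array median on all 4 arrays, 16 below it on all 4, and Bmp4 and Bmp8a on both sides. The 17 bright genes included 9 type I, type II or co-receptors, 2 TGF-beta ligands and Bmp1, and among the ligands of the BMP and GDF families Bmp8b, Gdf1, Gdf9, Gdf10 and Gdf11. Bmp2, Bmp3 and Bmp15 lay below the lower quartile on all 4 arrays, where background holds much of the signal and differences are compressed. With 2 arrays per group, the number of arrays limits the precision, and in such bulk samples fewer cells of a type and less RNA per cell cannot be told apart. Across probe sets the 2 arrays of WTA correlated at 0.997 and those of WT2 at 0.988, while arrays of the same treatment in different cultures correlated at 0.982 (control) and 0.985 (streptozotocin). Defining markers of smooth muscle (8 listed) and of bone-forming cells (10 listed) could not be used to check the cells, since 0 of either list were among the named probe sets.

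The first comparison asked how these genes responded to streptozotocin. No member passed the test. All 3 TGF-beta ligands had values below control in both cultures, as did 28.5% of all probe sets, and in WTA the differences of Tgfb1 and Tgfb2 were only -0.04 and -0.01. The BMP and GDF ligands were spread on both sides of 0. Tgfb3, a TGF-beta isoform of mesenchymal cells, stood at 9.69 in the WT2 control array and 9.15 with streptozotocin, and at 9.26 and 9.07 in WTA. Both streptozotocin arrays were thus below both control arrays. The group means were 9.11 ± 0.06 with streptozotocin and 9.47 ± 0.31 without it (SD, n = 2 each), so that streptozotocin minus control was -0.37 with a 95% interval of -0.89 to 0.16 (limma adjusted p = 1). In each group the 2 arrays are 1 of WT2 and 1 of WTA, so the SD and this interval hold the difference between the cultures. In a fit that also held the culture, the interval was -0.74 to 0.01.

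Tgfb2, another isoform, stood at 5.60 in the WT2 control array and at 5.19 with streptozotocin, and at 5.28 and 5.26 in WTA. Its groups did not overlap either, but nearly all of the difference of -0.21 (interval -0.64 to 0.21) lay in WT2, where the control array was the highest of the 4. Tgfb1, the isoform that circulates and is stored in matrix in latent form, was 8.81 and 8.50 in WT2 (control, then streptozotocin) and 8.24 and 8.20 in WTA. Here the streptozotocin array of WT2 lay above both arrays of WTA, so the groups overlapped, and the difference was -0.18 (interval -0.90 to 0.54). In a fit that also held the culture, the interval was -0.51 to 0.15. Within the cultures Tgfb1 differed by -0.32 in WT2 and -0.04 in WTA. Without the WT2 control array the fitted difference turned to 0.11, but that fit sets both cultures against a control of WTA alone. That value therefore holds the difference between the cultures.

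Among the BMP ligands the largest difference was at Bmp8a, a ligand known from germ cell development. Its values were 5.47 and 6.21 in WT2 (control, then streptozotocin) and 7.44 and 7.62 in WTA. It was higher with streptozotocin in both cultures, by 0.73 and 0.19, but the cultures lay farther apart than the treatments, and the fitted difference of 0.46 had an interval of -2.12 to 3.03. In a fit that also held the culture, the interval was -0.03 to 0.94. Bmp6, an osteogenic ligand, was 5.17 and 5.36 in WT2 and 4.94 and 5.13 in WTA, a difference of 0.19 in each culture. Its groups overlapped, and its probe set lay below the array median on every array. The interval was -0.23 to 0.61, and -0.08 to 0.46 in the fit that also held the culture.

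Bmp4, an osteogenic ligand that endothelium and smooth muscle can release, moved in opposite directions. It was 4.79 in the WT2 control array and 5.16 with streptozotocin, and 6.61 in the WTA control array and 5.83 with streptozotocin. The difference was 0.37 in WT2 and -0.78 in WTA, and the 2 streptozotocin arrays lay between the 2 control arrays. Differences of at least 0.2 in opposite directions were seen for Bmp4 and Tgfbr2, 2 of 35 genes, against 5.22% of all probe sets. Bmp2, the ligand most used to induce bone, was 3.86 and 3.93 in WT2 and 4.06 and 3.99 in WTA, with an interval of the fitted difference of -0.32 to 0.32. These Bmp2 values lie near the low end of the array, so a change of Bmp2 may not have been detectable. Bmp15, known from the ovary, was 3.70 and 3.92 in WT2 (control, then streptozotocin) and 3.51 and 3.68 in WTA, a difference of 0.20 below the lower quartile of the arrays. Bmp10, known from the heart, was 4.87 and 4.96 in WT2 and 4.96 and 5.02 in WTA, a difference of 0.08. Both were slightly higher with streptozotocin in either culture. Bmp7, an osteogenic ligand, was 5.12 and 5.04 in WT2 and 5.23 and 5.24 in WTA, a difference of -0.04.

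Of the GDF ligands, Gdf10, a BMP relative also called BMP3b, was 10.88 and 11.54 in WT2 (control, then streptozotocin) and 9.28 and 9.19 in WTA. It differed by 0.67 in WT2 and by -0.08 in WTA. The other 8 GDF ligands differed by less, from -0.11 (Gdf7) to 0.03 (Gdf1). Gdf1 shares its messenger RNA with the ceramide synthase gene Cers1, so its value may belong to either. The activin chains Inhbc and Inhbe, best known from liver, each differed by -0.02.

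Among the receptors, Acvr2a, a type II receptor for activins and some BMP ligands, was 7.79 and 7.63 in WT2 (control, then streptozotocin) and 8.07 and 7.70 in WTA. Both streptozotocin arrays lay below both control arrays, with a difference of -0.27 (interval -0.65 to 0.12, and -0.58 to 0.04 with the culture in the fit). Its relative Acvr2b differed by -0.15 and was also without overlap, at 6.23 and 6.21 in WT2 and 6.31 and 6.04 in WTA. Bmpr1a, the widely expressed type I receptor for BMP2 and BMP4, was 10.34 and 10.01 in WT2 and 9.83 and 9.65 in WTA. It was lower in both cultures (difference -0.26, interval -0.96 to 0.44, and -0.55 to 0.03 with the culture in the fit). Bmpr1b, the other BMP type I receptor of that pair, went the other way, with both streptozotocin arrays (4.92 ± 0.12) above both control arrays (4.74 ± 0.07; SD, n = 2 each) on a probe set below the array median, a difference of 0.17.

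Acvrl1, the type I receptor known from endothelium as ALK1, was 8.17 in the WT2 streptozotocin array against 7.59 to 7.62 on the other 3, so its difference of 0.28 rests on 1 array. Tgfbr3, betaglycan, a proteoglycan that presents TGF-beta to its receptors, was 12.44 and 12.26 in WT2 and 11.85 and 11.54 in WTA. The difference was -0.24, with an interval of -1.25 to 0.76, and of -0.53 to 0.04 with the culture in the fit. Tgfbr2, the type II receptor for TGF-beta, was 11.74 and 12.02 in WT2 and 11.26 and 10.93 in WTA, which is 0.28 for WT2 and -0.32 for WTA as streptozotocin minus control. The second probe set of Tgfbr2 did not show this split, with -0.02 and -0.12, but it was much dimmer, at 6.73 to 7.22. Tgfbr1, the type I receptor that pairs with it, differed by 0.08, and Bmpr2, the main BMP type II receptor, by -0.05. Bmp1, which cleaves procollagen and the BMP antagonist chordin, was 10.67 and 10.72 in WT2 and 10.95 and 10.77 in WTA, a difference of -0.07.

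In all, limma with Benjamini-Hochberg adjustment over the 1246 probe sets called 0 of the 35 genes for streptozotocin, against 0% of all probe sets, and 0 of 35 at an unadjusted p under 0.05 against 2.01% of all. With the replicate number as a block it also called 0 of 35, and 0 of 35 at an unadjusted p under 0.05 against 6.42% of all probe sets. The groups did not overlap for 6 genes (17.1%), 1 higher and 5 lower, against 24.6% of all probe sets (10.8% higher and 13.8% lower), a share no larger than the background. The same direction in both cultures was seen for 17 genes, 8 higher and 9 lower (48.6%), against 51.0% of all (22.6% higher and 28.5% lower). The median difference over the 35 genes was -0.00 and over all probe sets -0.01. A difference of at least 1.5-fold was seen in WT2 for Bmp8a and Gdf10, both higher (5.71% of the genes against 4.82% of all), in WTA for Bmp4, lower (2.86% against 1.69%), and in both cultures for 0 genes (1.04% of all). Of 7 listed fibroblast markers 2 were measured, Pdgfra and Lum. Their summed linear intensity was lower with streptozotocin in both cultures, 4815 against 7406 in WT2 and 3214 against 4085 in WTA. Its part in the differences of single genes of the family was not tested. The intervals were wide, with a median SE of 0.12, so these counts do not show that the family did not respond. Each group holds 1 array of WT2 and 1 of WTA, so without the block the p-values measure the treatment against a spread that includes the difference between the cultures. Nothing beyond the names says that the arrays came from separate cultures or animals, so part of this spread may be technical.

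**Figure D1:**
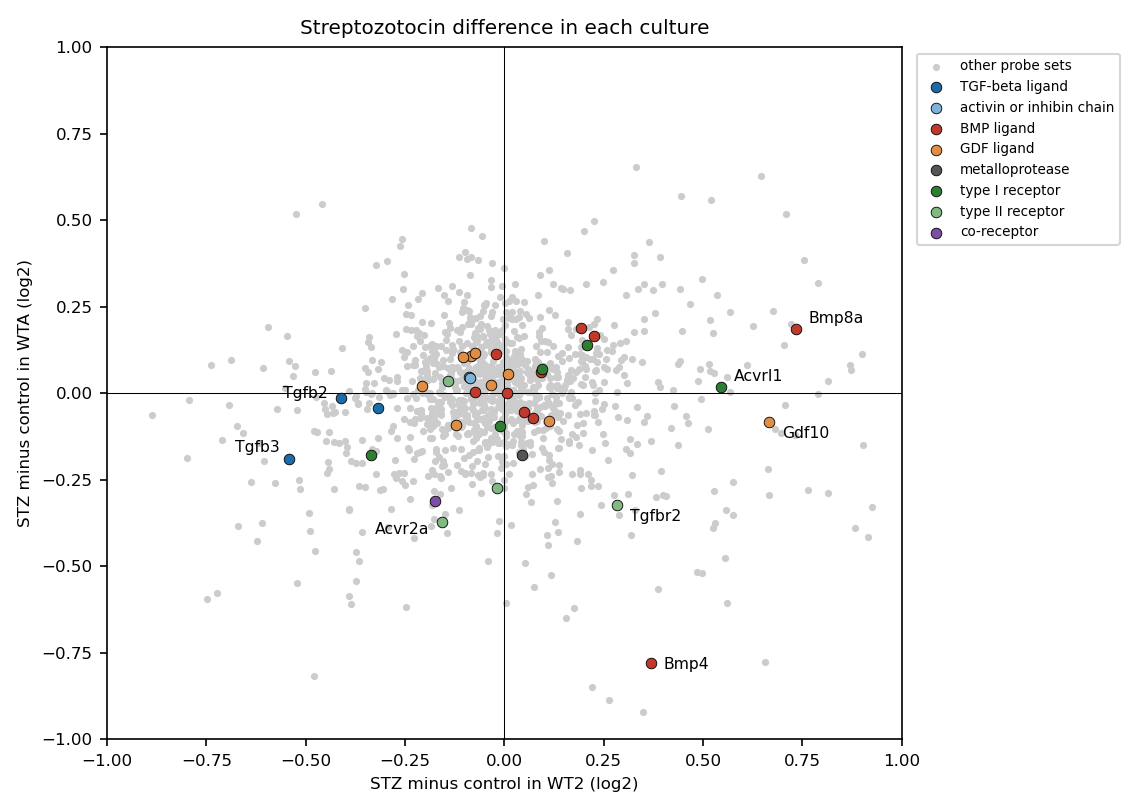
Streptozotocin minus control (log2) in culture WT2 on the horizontal axis and in WTA on the vertical axis, with the 35 genes coloured by role and the other probe sets in grey; 43 probe sets lie outside the axes, which end at 1. Bmp4 sits alone among the genes at 0.37 and -0.78, Bmp8a, Gdf10 and Acvrl1 lie to the right near 0 in WTA, and the 3 TGF-beta ligands lie to the left.

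The second comparison set the cultures against each other, WTA minus WT2, in a fit that also held the treatment. Bmp8a and Gdf6 rose and Gdf10 fell in WTA relative to WT2 past the test, while Bmp4, Tgfbr3, Tgfbr2, Bmpr1a and Tgfb1 differed with an unadjusted p under 0.05 and did not pass. Gdf6, a ligand of joint and skeletal patterning, was 4.25 and 4.36 in WT2 (control, then streptozotocin) and 5.37 and 5.29 in WTA. The WT2 means were 4.31 ± 0.08 and those of WTA 5.33 ± 0.06 (SD, n = 2 each), a difference of 1.02 (SE 0.11, 2.03-fold, limma adjusted p = 0.0445). Its WT2 values lay below the lower quartile of those arrays, so the size of this difference is uncertain. For this and the culture means below, the 2 arrays are 1 control and 1 streptozotocin array, so the SD holds the treatment difference.

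Bmp8a, with the values given above, had means of 5.84 ± 0.52 in WT2 and 7.53 ± 0.13 in WTA (SD, n = 2 each), a 3.23-fold difference (95% interval of the log2 difference 1.20 to 2.17, limma adjusted p = 0.0445). Its neighbour and close relative Bmp8b, on the same chromosome, was 6.52 and 6.53 in WT2 and 6.41 and 6.41 in WTA, a difference of -0.12 (interval -0.38 to 0.15). Gdf10 had means of 11.21 ± 0.47 in WT2 and 9.23 ± 0.06 in WTA, 3.93-fold lower in WTA (interval of the log2 difference -2.59 to -1.36, limma adjusted p = 0.0482). For all 3 genes both arrays of a culture lay on the same side of both arrays of the other.

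**Figure D2:**
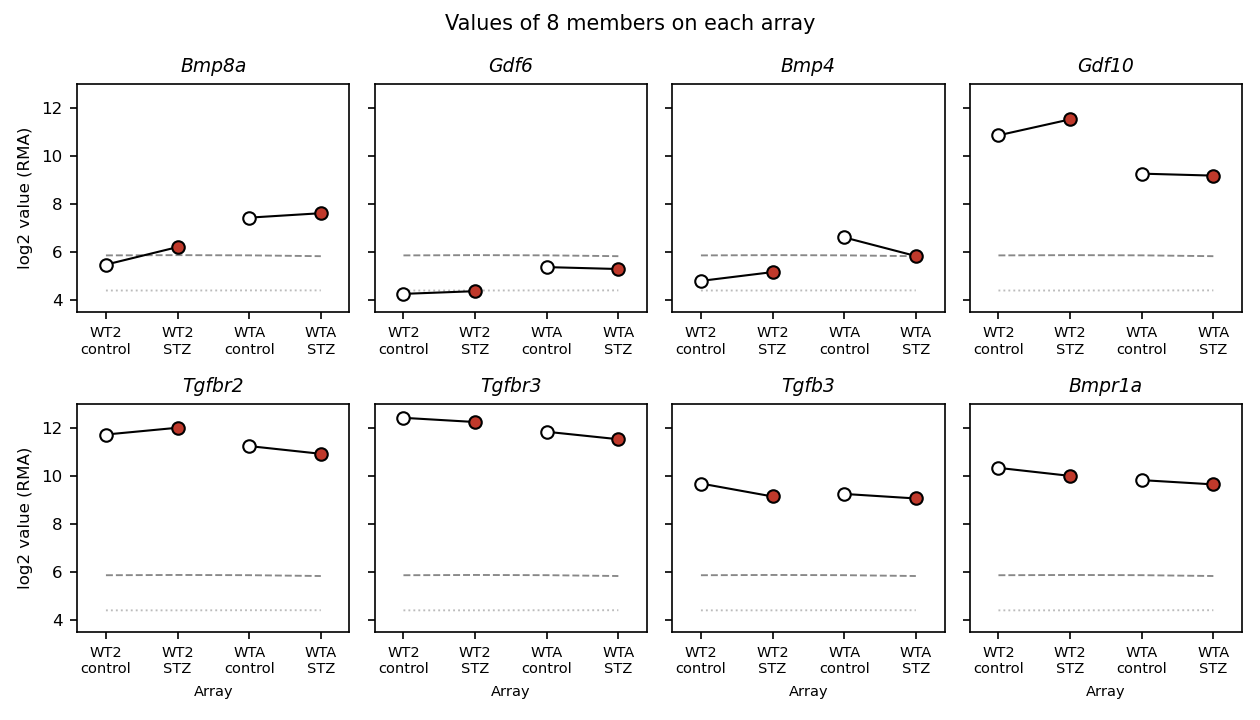
Log2 values of 8 genes on each array, with open circles for control, red circles for streptozotocin and a line joining the 2 arrays of a culture; the dashed line is the array median and the dotted line the lower quartile. For Bmp8a, Gdf6 and Gdf10 the step between the cultures is larger than either step between control and streptozotocin, and for Bmp4 the lines of the 2 cultures slope in opposite directions.

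At Bmp4 the cultures differed by 1.24 with an SE of 0.31, short of the threshold (adjusted p = 0.178, limma). WTA lay above WT2 by 1.82 in the control arrays and by 0.67 with streptozotocin, so the cultures were closer to each other in the presence of the compound, a change that could not be tested with 1 array in each arm of a culture.

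The windows of 250 bases before the annotated start of Bmp8a, Gdf10 and Bmp4 are shown because these ligands differed most between the cultures among those with an entry. They are RefSeq sequences of GRCm38.p6, outside the annotated span of each gene. Of the 35 genes 24 had such an entry. The windows lie at chr4:123343253-123343502 (minus strand), chr14:33923337-33923586 (plus strand) and chr14:46390670-46390919 (minus strand), each printed 5′ to 3′ along its gene, with matches to the E-box CANNTG in capitals.
Bmp8a: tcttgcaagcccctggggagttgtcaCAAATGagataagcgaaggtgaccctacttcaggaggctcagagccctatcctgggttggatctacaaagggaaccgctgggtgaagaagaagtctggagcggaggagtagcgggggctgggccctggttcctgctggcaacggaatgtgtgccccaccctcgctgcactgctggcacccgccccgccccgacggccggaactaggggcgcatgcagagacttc
Gdf10: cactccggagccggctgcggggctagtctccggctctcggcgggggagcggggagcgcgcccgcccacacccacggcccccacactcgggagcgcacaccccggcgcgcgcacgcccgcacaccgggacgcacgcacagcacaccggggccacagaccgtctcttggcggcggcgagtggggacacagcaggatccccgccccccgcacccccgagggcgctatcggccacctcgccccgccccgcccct
Bmp4: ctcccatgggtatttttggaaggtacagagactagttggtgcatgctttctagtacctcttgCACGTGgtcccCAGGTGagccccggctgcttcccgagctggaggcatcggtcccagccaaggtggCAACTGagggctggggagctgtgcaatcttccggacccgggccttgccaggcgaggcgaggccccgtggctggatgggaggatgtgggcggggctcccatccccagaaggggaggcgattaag

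Bmp8a held 1 E-box, which begins 224 bases before the start. Bmp4 held 3, which begin 188, 177 and 123 bases before the start, the first of them the palindrome CACGTG. Gdf10 held 0. An E-box was present in 66.2% of the 32851 windows of this length in the table, and in 14 of the 28 windows of the genes described here. On both strands, the Runx core TGTGGT is found in 4614 of the windows in the table, the BMP-responsive Smad element GGCGCC in 9.59% and the palindromic Smad element GTCTAGAC in 0.167%. The TATA box, letters TATAAA, is found in 12.4% and the CCAAT box in 33.8%. The 3 printed windows held 0 matches to any of these 5, and overlaps with an E-box were allowed. The Gdf10 window was 78.8% G and C with 35 CpG pairs, the Bmp8a window 62% with 12 and the Bmp4 window 63.2% with 11, where the median over all windows was 52.4% and 6. These are descriptions of letters, and a match or its absence says nothing about which factor bound there.

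Of 10 receptors and co-receptors, 7 had both WTA arrays below both WT2 arrays and 0 had both above (6 lower after median centring or quantile normalization). Of all probe sets 27.7% were lower in this way, and 33.1% of those above the median level, where 9 of the 10 lie, and none of the 10 passed the test. Tgfbr3 differed by -0.65 (SE 0.10, limma adjusted p = 0.0861), a 1.57-fold lower value in WTA, with means of 12.35 ± 0.12 in WT2 and 11.70 ± 0.22 in WTA (SD, n = 2 each). Tgfbr2 differed by -0.79 (SE 0.18, adjusted p = 0.160, limma), and its second probe set by -0.41, also without overlap of the cultures. Bmpr1a differed by -0.43, Tgfbr1, at 8.61 and 8.70 in WT2 and 8.37 and 8.44 in WTA, by -0.25, and Acvr1, a type I receptor for several BMP ligands, by -0.21. Bmpr2 was 6.39 and 6.25 in WT2 and 6.15 and 6.19 in WTA, a difference of -0.15. Acvr2a was the receptor with the opposite sign, at 0.17, and its arrays overlapped.

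Of the TGF-beta ligands, Tgfb1 was lower in WTA by 0.43 on the log2 scale (difference -0.43, interval -0.77 to -0.10, limma adjusted p = 0.203) without overlap, while Tgfb2 and Tgfb3 differed by -0.13 and -0.26 with overlap. Bmp6 and Bmp15 were lower in WTA on both arrays, by -0.23 and -0.22 as WTA minus WT2. Bmp1, Bmp2 and Bmp7 were higher on both, by 0.16, 0.13 and 0.15. None of these passed the test.

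**Figure D3:**
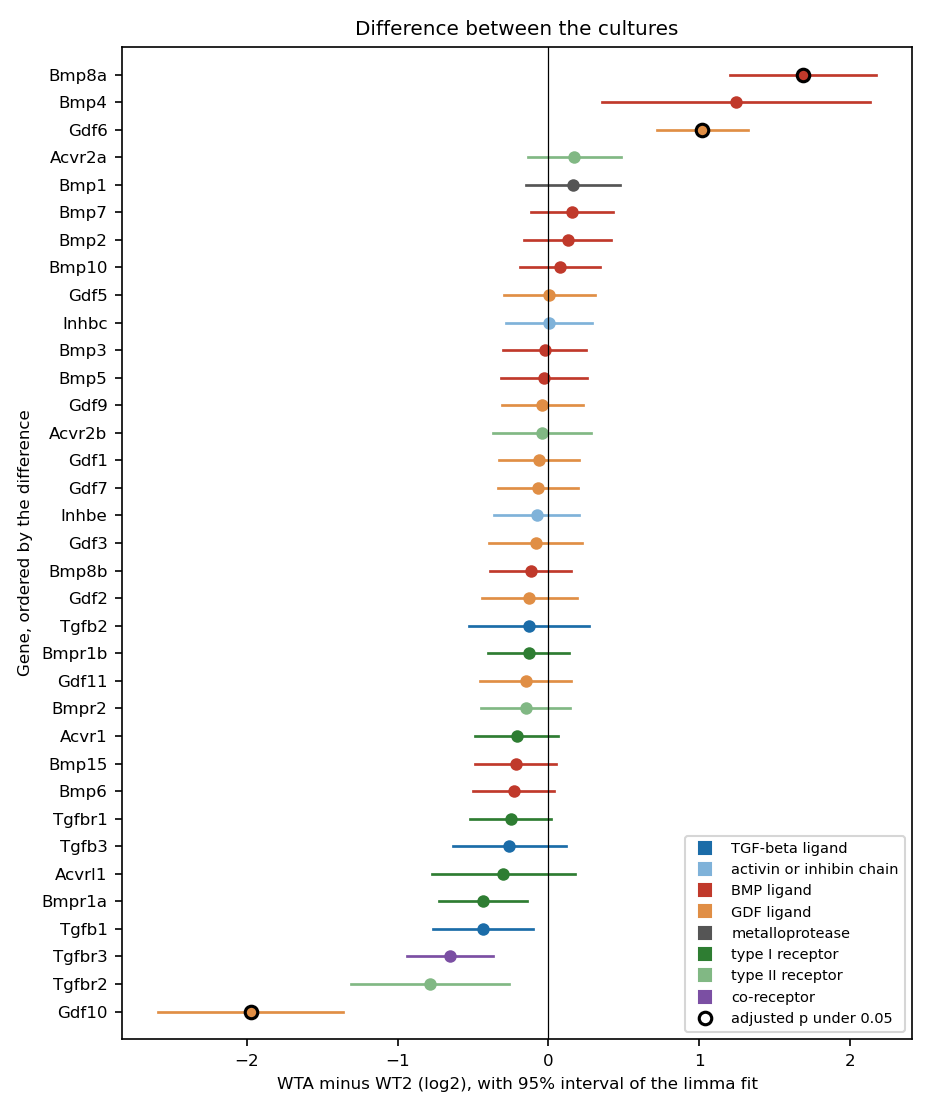
WTA minus WT2 (log2) for the 35 genes in order of the difference, with points coloured by role, bars for the 95% interval of the limma fit and black rings for an adjusted p under 0.05. Bmp8a, Bmp4 and Gdf6 lie at 1.69, 1.24 and 1.02, Gdf10 at -1.98, and the receptors except Acvr2a lie on the left of 0.

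Over the family, limma called 3 of 35 genes (8.57%) between the cultures, 2 higher and 1 lower, against 2.25% of all probe sets, 1.44% higher and 0.803% lower. At an unadjusted p under 0.05 there were 8 (22.9%), 3 higher and 5 lower, against 16.9% of all, 7.30% higher and 9.55% lower. The cultures did not overlap for 23 genes (65.7%), 6 higher and 17 lower, against 49.0% of all probe sets, 21.3% higher and 27.7% lower. After median centring these were 7 higher and 11 lower, against 24.2% and 24.1% of all, so part of the lean to lower values moves with the scaling. Among the 18 genes whose mean was above the median level of all probe sets, 13 were lower without overlap (33.1% of all probe sets above that level), and 10 after median centring (30.8%). The median difference was -0.08 over the 35 genes and -0.02 over all probe sets.

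The calls rest on few arrays. In a fit with the culture alone, Gdf6 passed (adjusted p = 0.0354, limma) and Bmp8a and Gdf10 did not (0.115 and 0.0689). In that fit 0 genes of the family passed without either array of WTA, Gdf10 alone passed without the WT2 control array, and Bmp8a and Gdf10 passed without the WT2 streptozotocin array. With 1 probe set per gene Gdf10 had an adjusted p of 0.0503, and after quantile normalization none of the 3 passed (0.0695, 0.0709 and 0.0896 for Bmp8a, Gdf6 and Gdf10). The p-values compare these 2 cell samples and say nothing of how other cell samples would vary.

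Markers of other cell types were compared in the same way. Of 12 endothelial markers 6 were measured, and the sum of their linear intensities was 1898 and 1917 in WT2 (control, then streptozotocin) and 2578 and 2724 in WTA. The single markers went both ways, with 3 of 6 higher and 2 lower in WTA without overlap. Esm1 was higher and Cd34 lower past the test, Thbd was 8.63 and 9.64 in WT2 and 10.37 and 10.57 in WTA, and Icam2 was lower in WTA without overlap. Pecam1, which defines endothelium, lay below the lower quartile on all arrays. Of 7 fibroblast markers Pdgfra and Lum were measured, with a sum of 7406 and 4815 in WT2 and 4085 and 3214 in WTA, and of the 2 Pdgfra was lower in WTA without overlap while Lum overlapped. Of 13 leukocyte and macrophage markers 7 were measured, with sums of 346 and 303 in WT2 and 313 and 384 in WTA. Csf1r, the brightest of the 7, lay above the array median on all arrays. Its means were 7.53 ± 0.18 in WT2 and 7.70 ± 0.31 in WTA, and the cultures overlapped. Adgre1 was dim, at 2.79 to 3.16. The part of the cells' makeup in the culture differences was not tested.

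**Figure D4:**
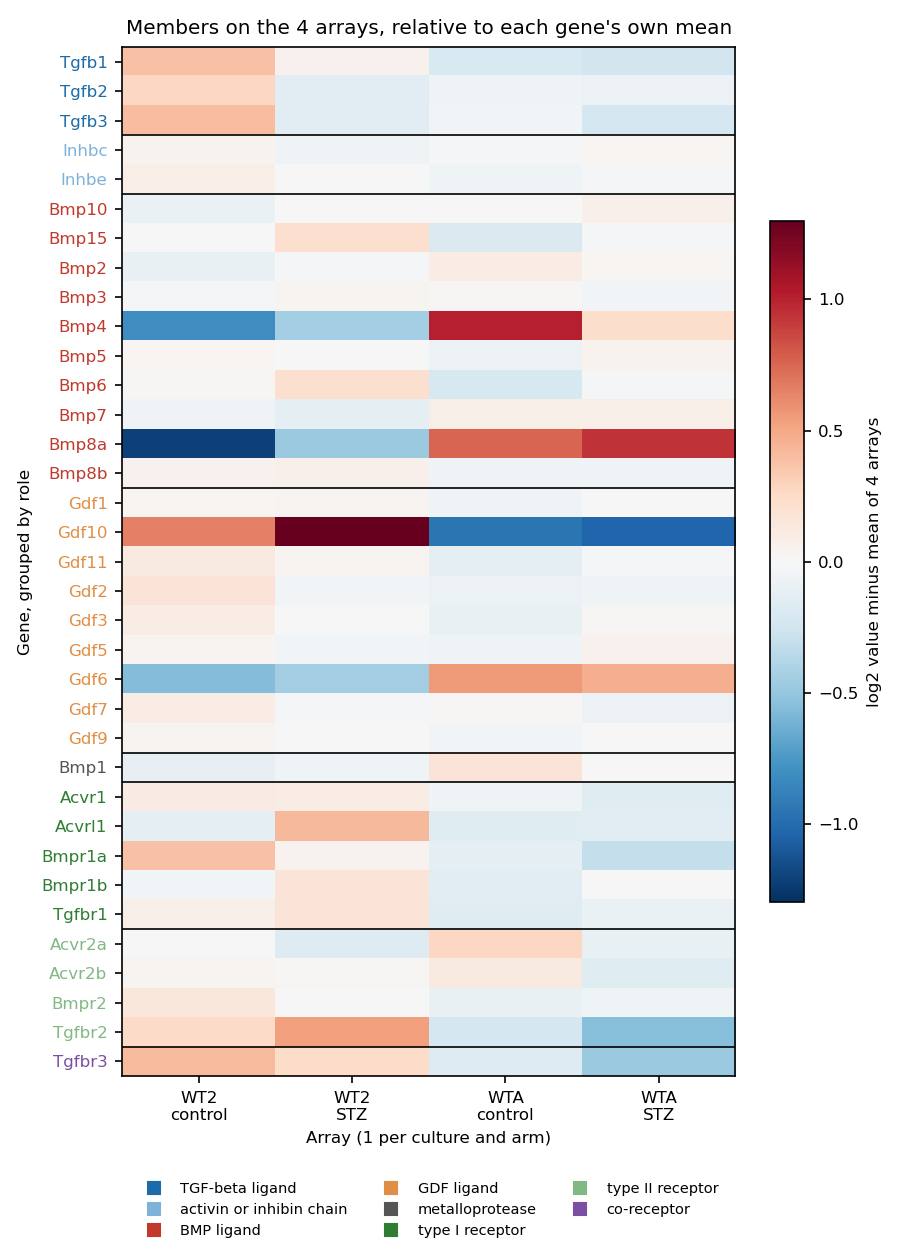
Each of the 35 genes (rows, grouped by role) on the 4 arrays (columns), coloured by its log2 value minus its own mean over the arrays; colours end at 1.3 in either direction. Bmp4, Bmp8a and Gdf6 are blue in WT2 and red in WTA, Gdf10 is the reverse, and the TGF-beta ligands are reddest in the WT2 control array.

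The remaining members are those left once the largest differences were taken, so their small spread follows from that rule. The 13 genes outside the rule for named genes were Acvr1, Bmp3, Bmp5, Bmp8b, Gdf1, Gdf2, Gdf3, Gdf5, Gdf7, Gdf9, Gdf11, Inhbc and Inhbe. None spanned more than 0.26 over the 4 arrays, their streptozotocin differences ran from -0.11 to 0.05 and their culture differences from -0.21 to 0.01. Acvr1, Bmp8b, Gdf1, Gdf2, Gdf9, Gdf11 and Inhbe were still lower in WTA without overlap, as were 27.7% of all probe sets. Gdf7 was lower with streptozotocin without overlap, as were 13.8% of all. The second probe set of Gdf3, a ligand of early embryos, differed by 0.02 with streptozotocin.

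Proteins that bind the ligands outside the cell were measured in part. Of a list of 29 antagonists and binding proteins 6 were among the named probe sets, and 0 passed either test. Noggin (Nog), a BMP antagonist, lay at 3.58 to 3.74, below the lower quartile of the arrays. Chordin (Chrd), which Bmp1 cleaves, was 7.56 in the WT2 control array and 7.07 to 7.08 on the other 3. Follistatin (Fst), which traps activins, was 9.90 and 10.02 in WT2 (control, then streptozotocin) and 9.64 and 9.40 in WTA.

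Of the proteoglycans on that list, which bind TGF-beta in the matrix, fibromodulin (Fmod) and decorin (Dcn) had values below control in both cultures. Fmod was 10.21 and 9.72 in WT2 and 9.61 and 9.21 in WTA, with a difference of -0.44 for streptozotocin and of -0.55 for WTA minus WT2. Dcn differed by -0.34 and -0.43, and biglycan (Bgn) by -0.00 and 0.05. The median over the 6 was -0.15 for streptozotocin and -0.34 for the cultures, where all probe sets had -0.01 and -0.02. The 6 other superfamily ligands and receptors and the 17 Smad and target genes that were listed had 0 genes among the named probe sets, so the signal downstream of these receptors could not be read from the array.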

How the data were processed

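RNA was isolated with Trizol and biotin-labelled for an Affymetrix array, per the labels' protocols. The authors deposited log2 values per probe set, and the submitters' processing notes name RMA (its version and settings: not given in the sources used here). By default it brings arrays to a common distribution, which would hide a shift shared by most genes. Accessions in the probe set identifiers were matched without version to RefSeq names (GRCm38.p6, names only): 963 of 1246 probe sets had a symbol. Of the 35 genes, 7 were read from probe sets marked s, which can hold probes shared between transcripts. These were Gdf6 and Gdf10, both past the culture test, and Acvrl1, Bmp5, Bmp15, Bmpr1b and Tgfb2.

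Groups came from the sample titles. Differences were fitted with limma 3.58.1 in R 4.3.3 (lmFit, eBayes) on all probe sets, with Benjamini-Hochberg adjustment over all 1246 and a threshold of 0.05. The streptozotocin fit had no block (2 residual degrees of freedom), and the culture term came from a fit with treatment (1 residual degree of freedom). Intervals are 95% intervals of the fit and hold no source of spread outside these arrays. Those for streptozotocin come from the fit without a block unless stated, so their width includes the difference between the cultures. For Gdf10 the SE was 1.05 without the block and 0.22 with it. The titles give the same culture name to both arrays of a replicate number, which pairs them, and the deviations of such pairs from the group means correlated at 0.600 over probe sets. Alternatives were the replicate block, 2 other scalings (median centring, quantile normalization), probe sets above the median level, a variance trend, a robust fit, a threshold of 0.1, the handling of several probe sets, the culture alone, and each array left out.

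The rule for the genes named with all values took the 8 largest differences in each direction of both comparisons, all calls, and Bmp2, Bmp4, Tgfb1 to Tgfb3, Bmpr1a, Bmpr2, Tgfbr1 and Tgfbr2, 22 in all. The genes and lists were chosen with earlier results of these data known.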

Additional observations from a re-analysis of the deposited data

Results flagged for a closer look

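Streptozotocin minus control (log2) was 0.37 in WT2 and -0.78 in WTA for Bmp4, and 0.28 in WT2 and -0.32 in WTA for Tgfbr2. The second probe set of Tgfbr2, much dimmer with values of 6.73 to 7.22, did not show the split, at -0.02 and -0.12. The difference between the cultures was not tested, since each arm of a culture holds 1 array. The pair was singled out by a limit of 0.2 in each culture, set after the values were seen, which 2 of 35 genes (5.71%) and 5.22% of all probe sets met, so the share is near that of the background.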

How the results depend on the processing

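The streptozotocin test called 0 probe sets and 0 of the 35 genes under every alternative run, the replicate block included (limma's smallest adjusted p with the block was 0.536 over all probe sets and 0.738 over the 35 genes), so the block changed no call. The median streptozotocin difference over the genes, -0.00, was -0.030 after quantile normalization and -0.036 over the genes above the median level, and ran from -0.054 to 0.033 with 1 array left out. The culture test called 28 probe sets, 8 after quantile normalization, 2 of those above the median level, 49 with a robust fit, 64 at an adjusted p under 0.1, 13 with the culture alone and 0 to 18 with the culture alone and 1 array left out. For the 35 genes, 3 calls became 0 after quantile normalization or above the median level, where Gdf6 was not tested, 1 with the culture alone and 0 to 2 with 1 array left out. The robust fit called Bmp8a, Gdf6 and Tgfbr3 (adjusted p = 0.0180, 0.0138 and 0.0423) and not Gdf10 (0.0612). The median culture difference, -0.08, was -0.11 after quantile normalization and -0.18 above the median level, and ran from -0.12 to -0.033 with 1 array left out. For these results the cause was not tested. Of the 22 named genes, the Bmp2 streptozotocin difference, 0 in the main fit, was 0.012 after median centring. Every other difference kept its sign under a scaling, the mean of all probe sets or the block. With 1 array left out, 13 streptozotocin differences, Bmp2 counted among them, and 4 culture differences changed sign. Such fits are unbalanced between the cultures, and the streptozotocin ones do not hold the culture. A fitted sign can then turn through the difference between the cultures. Acvrl1, Bmp8a, Tgfb1, Tgfbr1 and Tgfbr3 turned in this way although each had the same sign in WT2 and WTA. The streptozotocin ranges were -0.000264 to 0.56 for Acvrl1, -0.21 to 0.0698 for Bmp1, -0.0992 to 0.0992 for Bmp2, -1.11 to 0.70 for Bmp4, -0.13 to 0.0608 for Bmp7, -0.52 to 1.44 for Bmp8a, -0.17 to 0.0674 for Bmpr2, -0.88 to 1.47 for Gdf10, -0.54 to 0.58 for Gdf6, -0.47 to 0.11 for Tgfb1, -0.0501 to 0.21 for Tgfbr1, -0.56 to 0.52 for Tgfbr2 and -0.60 to 0.12 for Tgfbr3. The culture ranges were -0.0135 to 0.36 for Acvr2a, -0.18 to 0.0941 for Acvr2b, -0.33 to 0.078 for Tgfb2 and -0.53 to 0.0121 for Tgfb3. Dim signal limits Bmp2, Bmp3 and Bmp15, below the lower quartile on all arrays.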
